A study of Mus musculus with 1 sample.

Results

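The genes described are 4 members of the adherens junction: Cdh1, which encodes E-cadherin, and the 3 catenin genes Ctnna1, Ctnnb1 and Ctnnd1, which encode alpha-E-catenin, beta-catenin and p120-catenin. They were chosen by name and are 4 of the 32285 genes counted in a single-cell library of mouse stomach organoids. Organoids are epithelial cultures grown as hollow balls in a gel. The sample was labelled wild type, epithelial and untreated, and its cells were taken 7 days after seeding and separated with 0.05% trypsin-EDTA for 30 min. The other genotypes of the series were not analysed here. With 1 library there was no replicate, so no difference was tested, and every interval given is a 95% interval that covers counting error only.

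E-cadherin is the calcium-dependent adhesion molecule of epithelia: its outer part binds E-cadherin of the neighbouring cell, and its inner tail carries the catenins. Beta-catenin binds the end of the tail and alpha-E-catenin, which in turn links the complex to actin, while p120-catenin binds closer to the membrane and holds E-cadherin at the cell surface by slowing its uptake. Beta-catenin outside the junction is also the transcriptional partner of TCF proteins in Wnt signalling. In the stomach, loss of E-cadherin is known from hereditary and sporadic diffuse-type gastric cancer.

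Promoter sequence from RefSeq (GRCm38.p6) was matched for 2 of the 4 genes, Ctnnb1 and Ctnnd1. The windows below are the 250 bases before 3 of their RefSeq start sites, and they are shown because both genes are described throughout and the windows differ in composition. Capitals mark a match, on either strand, to the GC box GGGCGG, to the CCAAT box, which is named by its letters, or to the E-box CAGGTG, the type bound by Snail and Zeb repressors; a match on the other strand shows the reverse complement.
Ctnnb1, chr9:120933150-120933399, plus strand: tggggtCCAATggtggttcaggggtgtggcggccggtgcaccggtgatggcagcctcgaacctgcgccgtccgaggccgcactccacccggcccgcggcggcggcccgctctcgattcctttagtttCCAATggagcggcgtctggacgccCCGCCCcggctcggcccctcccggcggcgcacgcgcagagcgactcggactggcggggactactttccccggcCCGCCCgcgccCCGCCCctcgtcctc
Ctnnd1, chr2:84658978-84659227, minus strand: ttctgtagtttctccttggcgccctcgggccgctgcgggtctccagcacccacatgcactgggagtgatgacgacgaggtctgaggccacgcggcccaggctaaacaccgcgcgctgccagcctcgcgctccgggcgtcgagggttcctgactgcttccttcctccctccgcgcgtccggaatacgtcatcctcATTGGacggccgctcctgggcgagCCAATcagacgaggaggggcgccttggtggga
Ctnnd1, chr2:84650741-84650990, minus strand: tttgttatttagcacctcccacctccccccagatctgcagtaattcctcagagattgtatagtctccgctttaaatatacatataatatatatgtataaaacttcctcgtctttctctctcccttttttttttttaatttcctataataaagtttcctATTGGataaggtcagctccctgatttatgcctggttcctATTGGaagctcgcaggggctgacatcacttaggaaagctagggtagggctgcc
The Ctnnb1 window had 74.8% G and C, with 3 GC boxes and 2 CCAAT boxes. Another Ctnnb1 window, at 120933328 to 120933577, overlaps it and is not printed for that reason; it had 74.4% G and C, 2 GC boxes and no CCAAT box. The upstream Ctnnd1 window had 66.8% G and C with 2 CCAAT boxes, and the downstream one had 40% G and C, also with 2 CCAAT boxes. None of these windows held the E-box letters. Of 32851 RefSeq windows of the same length, 32.7% held a GC box, 33.9% a CCAAT box and 17.2% the E-box. These matches describe the letters of the windows.

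The library held 1991 barcodes, of which 1892 had at least 500 detected genes and at most 20% mitochondrial UMIs. A UMI (unique molecular identifier) marks 1 captured RNA molecule. Kept barcodes held 20118334 gene UMIs, with a median of 8512 per barcode (range 890 to 47183) and a median of 2220 genes. The epithelial label matched the markers: Krt18 was found in 99.6% of barcodes, Krt8 in 97.9% and Epcam in 96.6%. Of 11 marker genes of blood, vessel and connective tissue cells, 4 had no UMI, Cd68 had 196 and Lyz2 had 80, and the other 5 had at most 5. No population that should lack Cdh1 was therefore available to show the level of free RNA. Barcodes carried 1 of 2 multiplexing tags, CMO301 (1062 barcodes) or CMO302 (830), and the labels do not say what the tags mark. One group of 63 barcodes, cluster 7 below, held 70 of the 88 UMIs of Y-linked genes, while Xist had 9611 UMIs in the library, so results were also computed without it.

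Positions follow GRCm38 and the GENCODE M21 annotation, where all 4 genes are protein coding. Cdh1 (ENSMUSG00000000303) lies on chromosome 8 at 106603351 to 106670246 on the plus strand. Ctnna1 (ENSMUSG00000037815) lies on chromosome 18 at 35118859 to 35254779 on the plus strand, and Ctnnb1 (ENSMUSG00000006932) on chromosome 9 at 120929216 to 120960507, also on the plus strand. Ctnnd1 (ENSMUSG00000034101) lies on chromosome 2 at 84600071 to 84650765 on the minus strand. Genes on the opposite strand overlap Ctnna1 (Lrrtm2, 5 UMIs in kept barcodes) and Ctnnb1 (Ulk4, 66 UMIs, and 4930593C16Rik, 0 UMIs), few beside the UMIs of the members. On the same strand the annotation has Gm28635, a protein-coding gene, over Ctnnd1 and the microRNA gene Mir7090 over Ctnnb1; neither has a row in the matrix, so how their reads were counted was not seen.

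All 4 genes were found in a large part of the barcodes. Cdh1 had 1988 UMIs, which is 98.8 UMIs per 1000000 gene UMIs (CPM; interval 94.5 to 103), and was found in 986 barcodes, or 52.1% (49.8 to 54.4%). Ctnna1 had 3719 UMIs (185 CPM, 179 to 191) and was found in 71.3% of barcodes. Ctnnb1 had 2194 UMIs (109 CPM, 105 to 114) and was found in 57.3%, and Ctnnd1 had 1399 UMIs (69.5 CPM, 65.9 to 73.3) and was found in 44.5%. Levels of different genes were not ranked, since capture at the 3' end differs between transcripts. Without cluster 7 the levels were 97.2, 184, 106 and 68.9 CPM in the same order.

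The 2 tags gave like values. Cdh1 was at 101 CPM (95.5 to 107) in CMO301 barcodes and at 95.7 CPM (89.4 to 102) in CMO302 barcodes. Ctnna1 was at 185 CPM in both, Ctnnb1 at 109.5 and 108.5 CPM, and Ctnnd1 at 70.8 and 68.0 CPM. For each of the 4 genes the intervals of the tags overlapped. In the 99 barcodes left out, Cdh1 was at 194 CPM (123 to 291) from 23 UMIs, above its level in kept barcodes, and it was the only member whose interval there left out the level of kept barcodes. Ctnna1 was at 110 CPM (58.4 to 188). Ctnnb1 was at 135 CPM (77.1 to 219) and Ctnnd1 at 42.2 CPM (13.7 to 98.4).

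Missing Cdh1 UMIs went with shallow barcodes. Barcodes were divided by depth into 5 groups of nearly equal size. In the group with the fewest UMIs (median 4592), Cdh1 was found in 28.2%, Ctnna1 in 44.9%, Ctnnb1 in 32.5% and Ctnnd1 in 20.6%. In the deepest group (median 19674) the shares were 83.6%, 94.2%, 87.3% and 76.0%. If every barcode held each gene at its mean level, 59.0% of barcodes would show Cdh1, 77.8% Ctnna1, 62.1% Ctnnb1 and 48.0% Ctnnd1. The measured share was below that for each of the 4 genes.

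**Figure D1:**
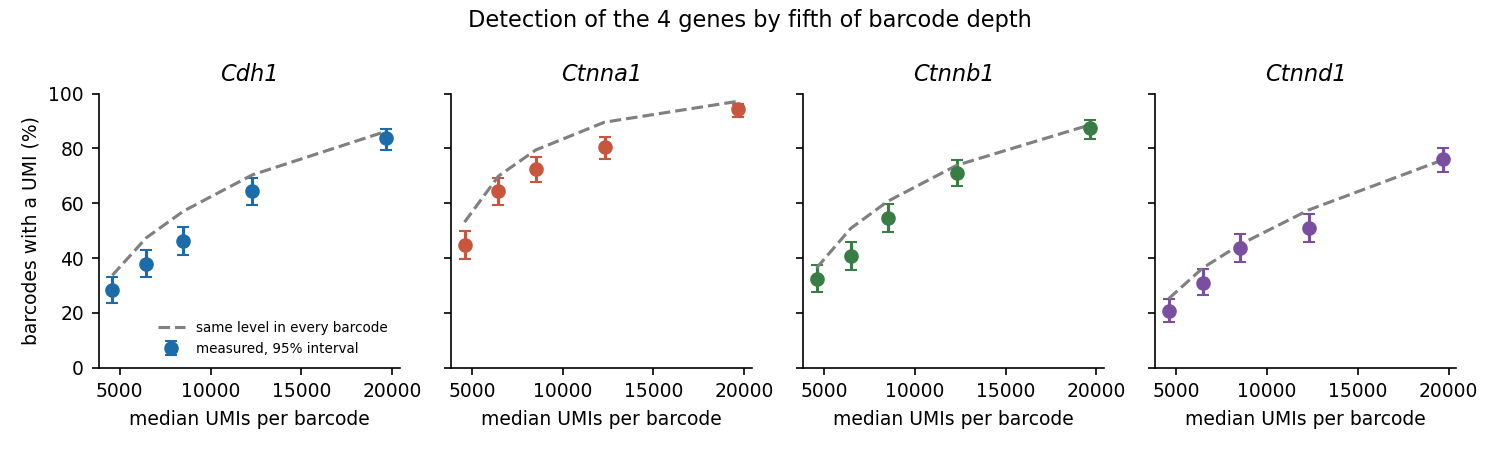
Share of barcodes with a UMI (vertical axis, %) against the median UMIs per barcode in 5 depth groups (horizontal axis), 1 panel per gene; points are measured shares with 95% Clopper-Pearson intervals and the dashed line is the share if every barcode held the gene at its mean level. For Cdh1 the share climbs from 28.2% to 83.6%, and its 5 points lie below the line.

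Barcodes without Cdh1 were rare at high depth. Among 179 barcodes with at least 20000 UMIs, 13 had no Cdh1 UMI (7.26%, 3.92 to 12.1%), where 15.2 would be without one at a constant level. Ctnnb1 was missing in 7 (11.9 at a constant level) and Ctnnd1 in 25 (30.9). Ctnna1 was missing in 6, where 2.0 would be. The constant level is the mean over all kept barcodes. The deepest of the 5 depth groups lay above it for each member, such as 116 against 98.8 CPM for Cdh1. The expected numbers were thus not matched to the level of deep barcodes. No deep barcode lacked all 4 genes. Over all depths, 164 barcodes had no UMI of any member, with a median of 5420 UMIs, and 365 barcodes (19.3%) had all 4, with a median of 17029 UMIs.

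As CPM the members were also higher in the deeper barcodes. Cdh1 went from 89.1 CPM (75.1 to 105) in the shallowest group to 116 CPM (108 to 123) in the deepest, with its lowest value, 79.4 CPM, in the second. Ctnna1 went from 160 to 198 CPM, Ctnnb1 from 97.2 to 125 CPM and Ctnnd1 from 53.6 to 78.9 CPM. The share of ribosomal protein genes was 33.1% in the shallowest group and 35.8 to 36.6% in the others. The variance of UMIs per barcode over their mean (Fano factor) was 2.16 for Cdh1, 2.56 for Ctnna1, 1.92 for Ctnnb1 and 1.62 for Ctnnd1. Depth alone, with a constant level, would give 1.41, 1.77, 1.45 and 1.29, so all 4 varied more between barcodes than depth accounted for. The most UMIs in 1 barcode were 14 of Cdh1, 19 of Ctnna1, 11 of Ctnnb1 and 10 of Ctnnd1.

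To compare barcodes at equal depth, each was thinned to 3000 UMIs by drawing without replacement, which kept 1835 barcodes and left out 57. At this depth Cdh1 was found in 22.8% of barcodes (52.1% before thinning), Ctnna1 in 40.0%, Ctnnb1 in 24.8% and Ctnnd1 in 16.2%. Cdh1 and Ctnna1 were found together in 190 barcodes, or 10.4% (9.0 to 11.8%), where the product of their shares is 9.13%, a ratio of 1.13 (0.985 to 1.30). Cdh1 and Ctnnb1 were together in 109 barcodes (5.94% against 5.66%), a ratio of 1.05 (0.866 to 1.26). Cdh1 and Ctnnd1 were together in 81 barcodes (4.41% against 3.71%), a ratio of 1.19 (0.949 to 1.47). The 3 ratios were above 1 with intervals that hold 1. These intervals cover the shared count only and treat the product of the shares as fixed. At 2000 UMIs the ratio for Cdh1 with Ctnnd1 was 1.43 (1.06 to 1.88), which leaves out 1, and with another seed at 3000 UMIs the ratio for Cdh1 with Ctnna1 was 0.987 (0.847 to 1.14).

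Between the catenins the 3 intervals also hold 1. Ctnna1 and Ctnnb1 were together in 9.86% of barcodes (product 9.92%), a ratio of 0.995 (0.861 to 1.14). Ctnna1 and Ctnnd1 gave 1.11 (0.932 to 1.30), and Ctnnb1 and Ctnnd1 gave 1.08 (0.862 to 1.34). Of the barcodes with a Cdh1 UMI, 45.3% (40.5 to 50.2%) also held Ctnna1, against 38.4% (35.9 to 41.0%) of those without one. For Ctnnb1 these shares were 26.0% and 24.4%, and for Ctnnd1 19.3% and 15.3%.

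A single draw adds its own noise, so the mean over all possible draws was also calculated exactly. It gave 1.08 for Cdh1 with Ctnna1, 1.09 with Ctnnb1 and 1.13 with Ctnnd1. The catenin pairs gave 1.055 for Ctnna1 with Ctnnb1, 1.10 for Ctnna1 with Ctnnd1 and 1.105 for Ctnnb1 with Ctnnd1. At 5000 UMIs (1637 barcodes) the 6 ratios were 1.07, 1.07, 1.11, 1.03, 1.08 and 1.06. The median ratio with Cdh1 over 2491 genes found in 10 to 60% of barcodes was 1.02, with 5th and 95th percentiles of 0.940 and 1.13. Of these genes, 18.6% lay above Ctnna1, 15% above Ctnnb1 and 4.98% above Ctnnd1. In the single draw, 15.7% of 2482 such genes lay above Ctnna1, 40.8% above Ctnnb1 and 7.13% above Ctnnd1. Ctnnd1 was thus near the upper end of the range of other genes both ways, while the place of Ctnnb1 moved with the draw. The ratio for Cdh1 with Ctnnd1 also moved, to 1.07 with another seed and to 1.07 in a single draw of 5000 UMIs.

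**Figure D2:**
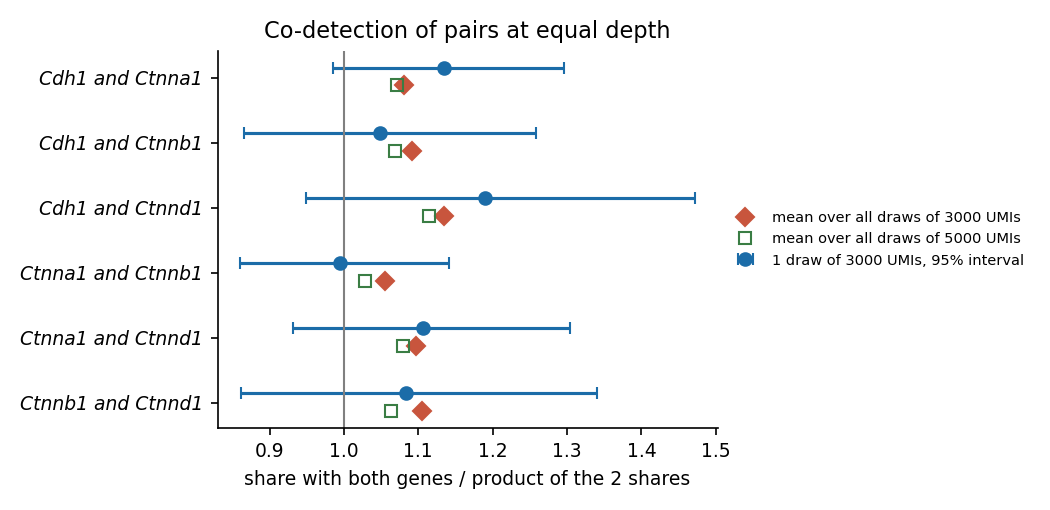
Share of barcodes with both genes over the product of their shares (horizontal axis) for the 6 pairs of members, in barcodes thinned to equal depth; circles are 1 draw of 3000 UMIs with 95% intervals, diamonds and squares are means over all draws of 3000 and 5000 UMIs. The circles range from 0.995 to 1.19 with intervals that hold 1, and the means over all draws lie between 1.03 and 1.13.

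Members were then counted per barcode. At 3000 UMIs, 31% of barcodes held none of the 4 genes, 40.8% held 1, 22.0% held 2, 5.61% held 3 and 0.545% held all 4. The product of the 4 shares gives 29.2%, 43.3%, 22.3%, 4.81% and 0.368%. Barcodes with 1 member were less frequent than the product (38.6 to 43.1%), and the intervals of the other 4 classes held it. At 5000 UMIs, barcodes with none (15.4%, 13.7 to 17.2%, product 13%) and with all 4 (2.69%, 1.96 to 3.59%, product 1.93%) were more frequent than the product. Those with 1 were again less frequent (33.5%, 31.2 to 35.8%, product 36.4%).

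In the single draw, barcodes with more Cdh1 UMIs held more of each catenin. At 3000 UMIs, Ctnna1 was at 176 CPM (164 to 189) in the 1416 barcodes without Cdh1, at 200 CPM (174 to 229) in the 345 with 1 UMI and at 270 CPM (206 to 348) in the 74 with 2 or more. Ctnnb1 was at 95.3, 101 and 126 CPM, and Ctnnd1 at 55.3, 65.7 and 76.6 CPM. For Ctnna1 the outer intervals did not overlap, while for Ctnnb1 (86.3 to 105 against 83.8 to 182) and Ctnnd1 (48.5 to 62.9 against 44.6 to 123) they did. Other properties moved along the same classes: the mean ribosomal share was 36.3%, 34.7% and 32.5%, the median number of genes 1114, 1148 and 1193, and the median depth before thinning 8602, 9259 and 9890 UMIs. The mitochondrial share was 4.23%, 4.31% and 4.67%. The correlations below are also given with depth and the ribosomal share regressed out.

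As a ratio of CPM with a Cdh1 UMI to CPM without one, the single draw gave 1.21 (1.05 to 1.39) for Ctnna1, 1.11 (0.905 to 1.35) for Ctnnb1 and 1.22 (0.942 to 1.57) for Ctnnd1. Another draw gave 1.02 (0.878 to 1.19) for Ctnna1, 1.09 (0.896 to 1.33) for Ctnnb1 and 1.01 (0.781 to 1.29) for Ctnnd1. Over all draws the ratios were 1.15, 1.17 and 1.17, from 196 against 171 CPM for Ctnna1, 114 against 97.6 for Ctnnb1 and 73.2 against 62.7 for Ctnnd1. The median over 3849 genes with at least 500 UMIs was 1.04, and the catenins ranked 602, 455 and 491 among them. In the single draw 2 of the 3 catenins were at least 1.2 times as high with Cdh1, as were 18% of all genes, and over all draws none of the 3 was, against 7.74%.

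Across barcodes the levels of the members followed one another weakly. The correlation was taken between residuals from the count that a barcode's depth predicts, and it is a description over the 1892 barcodes of 1 library. Cdh1 correlated at r = 0.157 with Ctnnb1, 0.136 with Ctnna1 and 0.0927 with Ctnnd1, where the median over 3849 genes was 0.020 and the 99th percentile 0.143. By this measure Ctnnb1 ranked 17, Ctnna1 61 and Ctnnd1 307 among all genes. Among the genes that followed Ctnnb1, Cdh1 ranked 2 of 3849. Between catenins r was 0.124 for Ctnna1 with Ctnnd1, 0.0939 for Ctnna1 with Ctnnb1 and 0.0767 for Ctnnb1 with Ctnnd1. Correlations were lower after thinning, which makes depth equal but also discards UMIs. The median over all genes fell as well, to 0.00876 at 5000 UMIs. At that depth the correlations of Cdh1 were 0.0721 with Ctnnb1, 0.0693 with Ctnna1 and 0.0236 with Ctnnd1, with ranks 168, 199 and 1309. In a draw at 3000 UMIs they were 0.0271, 0.0267 and 0.00425, with ranks 891, 911 and 2023. Spearman's rho at 3000 UMIs placed Ctnna1 at rank 108, Ctnnd1 at 315 and Ctnnb1 at 1268, so the high ranks of the catenins did not hold at matched depth by every measure. With depth and the ribosomal share regressed out, r with Cdh1 was 0.112 for Ctnnb1 (rank 14), 0.0796 for Ctnna1 (rank 113) and 0.0468 for Ctnnd1 (rank 535). With ribosomal and mitochondrial genes out of the totals it was 0.132, 0.109 and 0.0727, and centred within clusters 0.136, 0.102 and 0.062.

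The genes that followed Cdh1 or ran opposite to it were ranked in CMO301 barcodes and then read in CMO302 barcodes, which the ranking had not used. The 12 with the highest correlation were Myh9, Ahnak, Nfib, Ddx3x, Sptbn1, Crim1, Ywhaz, Wnk1, Slc26a2, Tjp1, Ccnd1 and Psme4. Their known roles differ. Myh9 encodes non-muscle myosin IIA, Sptbn1 a spectrin that lies under the membrane, Ahnak a giant scaffold protein at the membrane and Tjp1 the tight junction protein ZO-1. Ahnak had r = 0.218 in CMO301 barcodes and 0.248 in CMO302 barcodes, where it ranked 2 of 3849. Nfib, a nuclear factor I transcription factor, had 0.184 and 0.281 and ranked 1 in CMO302 barcodes. Sptbn1 had 0.181 and 0.195 (rank 13), Wnk1, a kinase that controls ion transport, 0.177 and 0.178 (rank 28), and Tjp1 0.176 and 0.171 (rank 39). Myh9, first in CMO301 barcodes with 0.224, had 0.0845 and rank 562 in CMO302 barcodes. All 12 had r above 0 in CMO302 barcodes, where 65.8% of all genes did.

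In CPM these genes were moderately higher beside Cdh1. Over all draws Slc26a2, a sulfate transporter, was at 75.2 CPM with a Cdh1 UMI and 48.8 CPM without one, a ratio of 1.54 that ranked 4 of 3849. Crim1, a transmembrane protein that binds growth factors of the BMP group, had 1.30, Myh9 1.27, Nfib 1.27, Wnk1 1.26, Psme4 1.24 and Tjp1 1.23. Ccnd1, cyclin D1 of the G1 phase, was at 450 against 368 CPM, a ratio of 1.22. Ahnak (1.22) and Ddx3x (1.22) also passed 1.2, while Sptbn1 (1.19) and Ywhaz (1.10) did not. Of the 12 genes, 10 were thus at least 1.2 times as high, against 7.74% of all genes, and 7 were so in the single draw, against 18%. These counts describe genes chosen for following Cdh1. In CMO302 barcodes alone, 5 of the 12 passed 1.2 over all draws, against 13.2% of all genes, and the 12 ratios ran from 1.04 for Ywhaz to 1.53 for Slc26a2.

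Ribosomal protein genes led the genes that ran opposite to Cdh1, as 30 of the 50 lowest in CMO301 barcodes. The 12 with the lowest correlation in CMO301 barcodes included Rpl21, Rpl9, Rplp0, Rpl8, Rpl28, Rpl6, Rpl13, Rpl11, Rps7, Rpl32 and Atp5e. Of these, Atp5e encodes a subunit of the mitochondrial ATP synthase and the others encode ribosomal proteins. Rpl21 had r = -0.239 in CMO301 barcodes and -0.195 in CMO302 barcodes, Rpl28 -0.211 and -0.236, and Atp5e -0.182 and -0.114. All 12 were below 0 in CMO302 barcodes. The CPM ratios of the named ones over all draws lay between 0.905 (Rpl21, 3312 against 3658 CPM) and 0.935 (Rpl13), and none of them was at most 0.833 times as high, the inverse of 1.2, as 0.52% of all genes were (6% in the single draw).

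Most other ribosomal genes lay on the same side. Of 83 ribosomal protein genes, 76 had r below 0 with Cdh1, with a median of -0.132, against 33.9% of the 3766 other genes, whose median was 0.021. The median ratio of the ribosomal genes over all draws was 0.952. Malat1 and Neat1, nuclear long non-coding RNAs, lay on the other side, with r = 0.124 and 0.125 and ratios of 1.21 and 1.24 over all draws. Values that bear on this were computed with other totals. With ribosomal and mitochondrial genes left out of the totals, all 12 high genes were above 0 and all 12 low genes below 0, with median r of 0.146 and -0.165. Centred within clusters the medians were 0.126 and -0.157. With depth and the ribosomal share regressed out, the medians were 0.108 and -0.0804, and 11 of the 12 low genes were below 0, with Rpl13 at 0.00497. At matched depth the medians were nearer 0: 0.0867 and -0.128 at 5000 UMIs, 0.0569 and -0.0951 in a draw at 3000 UMIs, and 0.0575 and -0.091 by Spearman's rho at 3000 UMIs, against 0.167 and -0.201 without thinning. Ranks of single genes moved as well, such as Crim1 to 902 in that draw and Ddx3x to 1489 by Spearman's rho, while Ahnak ranked 1 and Nfib 4 in that draw. With the named genes included, the 50 highest in CMO301 barcodes were all above 0 in CMO302 barcodes (median 0.125) and the 50 lowest all below 0 (median -0.155).

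**Figure D3:**
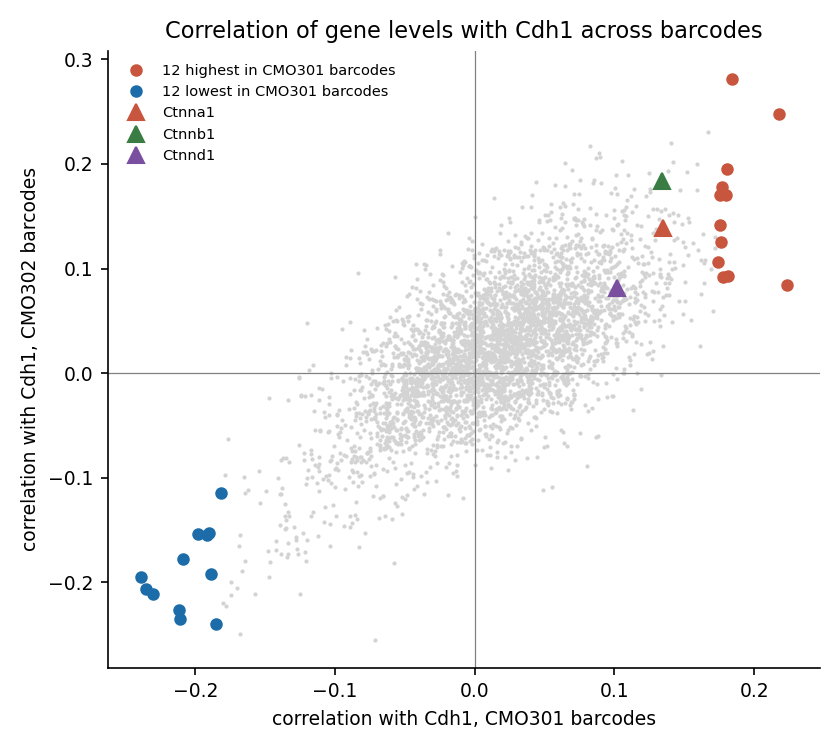
Correlation of each gene with Cdh1 across CMO301 barcodes (horizontal axis, used to choose the named genes) and across CMO302 barcodes (vertical axis), for 3849 genes; coloured points are the 12 highest and 12 lowest genes and triangles are the catenins. The 12 high genes lie above 0 on both axes, the 12 low genes below 0 on both, and the 3 catenins lie above 0 on both.

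The catenins had partly the same companions. Ctnna1 followed Ccnd1 most closely (r = 0.281 in CMO301 and 0.245 in CMO302 barcodes), then Ahnak, Tjp1, Sptbn1 and Ywhaz, all 5 of which are among the 12 genes named for Cdh1. Ctnnd1 followed App, the amyloid precursor protein (0.202 and 0.165), then Sptbn1, the RNA-binding proteins Hnrnpa2b1 and Hnrnpa3, and Aplp2. Ctnnb1 followed Clu, which encodes clusterin (0.218 and 0.102), then B4galt1, Fndc3b, the sodium pump subunit Atp1b1 and Aplp2, a relative of App. For Ctnnb1 the values in CMO302 barcodes were 0.0619 to 0.159, lower than in CMO301 barcodes for all but Aplp2.

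Genes of the same junction were read from lists. Of 21 partners and catenin relatives, 9 had at least 500 UMIs and all 9 were higher beside Cdh1 over all draws, with a median ratio of 1.14 against 1.04 for all genes, of which 64.7% were above 1. Pkp4, a p120 relative, had the highest ratio at 1.33 (66.6 against 50.2 CPM), but 1.10 in CMO301 barcodes and 1.63 in CMO302 barcodes. Afdn, afadin of the nectin system, had 1.21 (140 against 116 CPM), and Lima1, which binds actin and alpha-catenin, 1.19. Jup, plakoglobin, which can take the place of beta-catenin in the complex, had 1.16 and a level of 72.2 CPM. In the barcodes of 1 tag, 2 of the 9 were below 1: Ctnnal1 (0.924 in CMO302) and Nectin2 (0.973 in CMO301). Vcl, vinculin, which alpha-catenin recruits under tension, had 1.14, and Epcam 1.05. The other alpha-catenins Ctnna2 and Ctnna3 and the neural relative Ctnnd2 had no UMI in 1892 barcodes, which allows a level of up to 0.183 CPM, and Arvcf, the p120 relative, was at 2.63 CPM.

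E-cadherin was not the only cadherin of these cells. Of 11 other cadherin genes, Cdh13, which encodes T-cadherin, a cadherin held by a lipid anchor with no catenin-binding tail, had 1917 UMIs (95.3 CPM, 91.1 to 99.7) in 51.1% of barcodes. It stood at 107 CPM beside Cdh1 and 87.7 CPM without, a ratio of 1.23 over all draws (1.27 in CMO301 and 1.18 in CMO302 barcodes). The others were at or near 0: Cdh17 had 14 UMIs, Cdh4 11, Cdh3, which encodes P-cadherin, 5, and Cdh2, which encodes N-cadherin, 1, while Cdh5, Cdh16 and Cdh26 had none. T-cadherin was therefore the only one of the 11 with more than 14 UMIs.

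Of 7 repressors of Cdh1, 6 had at most 5 UMIs. Snai2, Zeb1, Twist1 and Twist2 had no UMI, Zeb2 had 1 and Snai1 had 5. Tcf3, the E2A factor, which also acts in other settings, was the exception, with 238 UMIs (11.8 CPM) in 11.5% of barcodes. Among the mesenchymal genes, Fn1 was at 19.4 CPM in 15% of barcodes and Vim at 2.88 CPM, Acta2 and Col1a1 had 1 UMI each, and Col3a1 and Sparc had none. Of 12 epithelial regulators all were found and 5 had at least 500 UMIs. Foxa2 (25 UMIs, 1.24 CPM) and Hnf4a (27 UMIs, 1.34 CPM) were below Vim (58 UMIs). Ovol2 (105 UMIs), Ovol1 (117), Grhl2 (222) and Esrp2 (225) were below Fn1 (391), and Foxa1 had 487. Levels in these lists thus did not separate epithelial from mesenchymal genes throughout. Esrp1, an epithelial splicing factor, had a ratio of 1.31 beside Cdh1 (35.7 against 27.3 CPM), Elf3 1.12, Klf5 1.11, Ehf 1.06 and Klf4 1.001.

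Genes that act on beta-catenin differed between the ways of thinning. Of 16 genes of its destruction complex and TCF partners, 7 had at least 500 UMIs, with a median ratio over all draws of 1.13. In the single draw the median was 1.05, and Gsk3a (0.888, 0.553 to 1.38), Fbxw11 (0.895) and Tcf7l2 (0.864) were below 1. Over all draws Gsk3a, a kinase that marks beta-catenin for degradation, had 1.21, the scaffold Apc 1.19, Csnk1a1, the priming kinase, 1.15, and Gsk3b 1.13. Tcf7l2, a DNA-binding partner, had 1.13, and Lef1, another, had 3 UMIs in all. Of 8 Wnt target genes only Rnf43, a ubiquitin ligase that removes Wnt receptors, had 500 UMIs, with a ratio of 1.25. Axin2 had 378 UMIs (18.8 CPM), Lgr5, the stem cell receptor, 91 and Ascl2 3.

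Partners of p120-catenin, uptake genes and other junctions completed the lists. Of 9 genes of p120 partners, small GTPases and their effectors, 7 had at least 500 UMIs. Among these, Rock2 (1.23) and Rock1 (1.204), the kinases that activate myosin, passed 1.2 over all barcodes, and Rac1 was at 0.977. By tag, Rock2 had 1.33 in CMO301 and 1.11 in CMO302 barcodes, and Rock1 1.32 and 1.07. The single draw gave 1.12 for Rac1 and 0.962 for Cdc42, and all draws of 5000 UMIs gave 1.02 for Rac1. Among the 6 of 14 uptake and processing genes with at least 500 UMIs, the ratios ran from 1.03 for Rab7 to 1.15 for Cltc, clathrin heavy chain. Of 6 desmosomal genes, Dsp and Dsg2 had that many, with ratios of 1.19 and 1.09. Of 10 tight junction genes 7 had that many, of which Tjp1 had the highest ratio (1.23), followed by F11r (1.18), and Cldn3 the lowest (0.952; 0.894 in CMO301 and 1.03 in CMO302 barcodes). Over all these lists 9 of 45 genes (20%) passed 1.2 over all draws, against 7.74% of all genes, and none was at or under its inverse, against 0.52%. In the single draw 14 of the 45 passed 1.2, against 18% of all genes, Rab7 (0.795) was under the inverse and 8 were below 1. Both ways of thinning shared 5 of the genes that passed. The ratio over all draws was above 1 in the barcodes of both tags for 39 of the 45. Means over all draws carry no interval here, so no order among the list genes was drawn beyond these values.

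**Figure D4:**
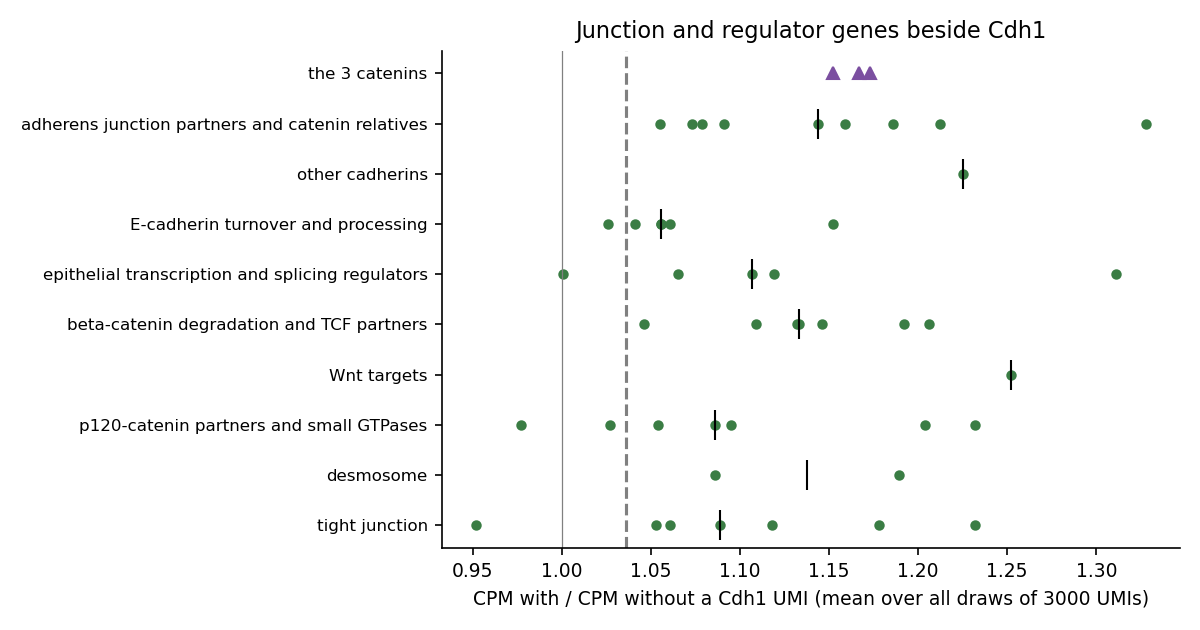
Ratio of CPM in barcodes with a Cdh1 UMI to CPM in those without (horizontal axis, mean over all draws of 3000 UMIs); each point is a gene with at least 500 UMIs and each row a list, with the 3 catenins for comparison. The catenins lie at 1.15 to 1.17, and the dashed line is the median over all genes, 1.04.

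Barcodes were grouped into 7 clusters from variable genes without the 4 members. Cdh1 ranged from 58.9 CPM (48.4 to 71.0) in cluster 4 to 135 CPM (124 to 146) in cluster 3. The order from the top was cluster 3 (135), 7 (129), 6 (98.9), 1 (94.8), 2 (93.5), 5 (67.5) and 4 (58.9). The intervals of neighbours overlapped throughout except between clusters 2 (85.5 to 102) and 5 (56.5 to 80.0). Cluster 3 had 305 barcodes led by the chemokine genes Cxcl5 and Cxcl2, and cluster 4 had 291 barcodes led by 2610528A11Rik and Mt1, which encodes metallothionein. Cluster 5 (235 barcodes) was led by Psca, cluster 6 (88 barcodes) by the cell division genes Aspm and Dlgap5, and cluster 7 (63 barcodes) by Cyba and Reg3g. Clusters 1 (479 barcodes; Aox3 and Scgb3a1) and 2 (431 barcodes; Ly6m and Sprr1a) were the largest. No cluster was given a cell type name.

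By CPM the catenins were also lowest in cluster 4. In cluster 3 Ctnna1 was at 241 CPM (227 to 257), in cluster 4 at 118 CPM (103 to 135), with 170 to 199 CPM in the other 5. Ctnnd1 had 88.1 CPM (79.4 to 97.5) in cluster 3, against 35.3 CPM (27.3 to 44.9) in cluster 4. By CPM Ctnnb1 was highest in cluster 7, at 160 CPM (136 to 186), with 123 CPM in cluster 3, 122 CPM in cluster 6 and 77.6 CPM (65.5 to 91.3) in cluster 4. Cluster 5 was low in Cdh1, Ctnnb1 (85.2 CPM) and Ctnnd1 (52.3 CPM) but not in Ctnna1 (170 CPM), so Ctnna1 did not share that step.

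Cluster 3 over cluster 4 gave 2.29 (1.86 to 2.83) for Cdh1, 2.04 (1.76 to 2.37) for Ctnna1, 1.58 (1.31 to 1.91) for Ctnnb1 and 2.50 (1.92 to 3.29) for Ctnnd1. All 4 members were at least 1.5 times as high, as were 32.6% of all genes in this comparison, whose median ratio was 1.25. The 2 clusters were chosen as the extremes of Cdh1, so its ratio is a description. Cluster 4 was shallow, with a median of 5796 UMIs and 40.7% ribosomal UMIs, against 12321 UMIs and 32.6% in cluster 3. As the highest over the lowest cluster, Ctnnb1 gave 2.06 (1.64 to 2.60), from cluster 7 over cluster 4, and the other members the values above. With ribosomal and mitochondrial genes out of the totals, the highest over the lowest cluster was 1.99 (1.62 to 2.46) for Cdh1, 1.77 for Ctnna1, 1.80 for Ctnnb1 and 2.17 for Ctnnd1. At 3000 UMIs per barcode, Cdh1 was found in 33.6% of cluster 3 (28.2 to 39.2%) and in 15.9% of cluster 4 (11.8 to 20.9%), the highest and the lowest share. The highest shares of the catenins at this depth were in cluster 6: 51.1% for Ctnna1 (40.3 to 62.0%; 50% in cluster 3), 35.2% for Ctnnb1 (25.3 to 46.1%; 29% in cluster 7) and 22.7% for Ctnnd1 (14.5 to 32.9%; 20.1% in cluster 3). Their intervals overlapped those of the clusters highest in CPM, so which cluster was highest for a catenin depends on the measure. The lowest share of Ctnnb1 was in cluster 5 (19.7%), beside 20% in cluster 4. Ratios of Cdh1 were 2.25 in CMO301 and 2.33 in CMO302 barcodes. At a coarser clustering (resolution 0.3) the ratio of the highest to the lowest cluster was 1.40 for Cdh1, 1.33 for Ctnna1, 1.37 for Ctnnb1 and 1.44 for Ctnnd1.

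Of the companions of Cdh1, Ccnd1, Tjp1 and Ahnak were read by cluster, and cluster 3 was highest and cluster 4 lowest for each. They were chosen for following Cdh1 in these barcodes, and clusters 3 and 4 were the extremes of Cdh1, so this is a description. Of all genes, 32.6% were at least 1.5 times as high in cluster 3 as in cluster 4. In clusters 3 and 4, Ccnd1 was at 777 and 121 CPM, Tjp1 at 278 and 69.0 CPM, and Ahnak at 1003 and 378 CPM. Cdh13 was at 133 and 63.7 CPM there, but its lowest level was in cluster 7 (50 CPM, 37.3 to 65.8), where Cdh1 was second highest. Malat1 did not follow this order: its values there were 22700 and 24974 CPM.

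**Figure D5:**
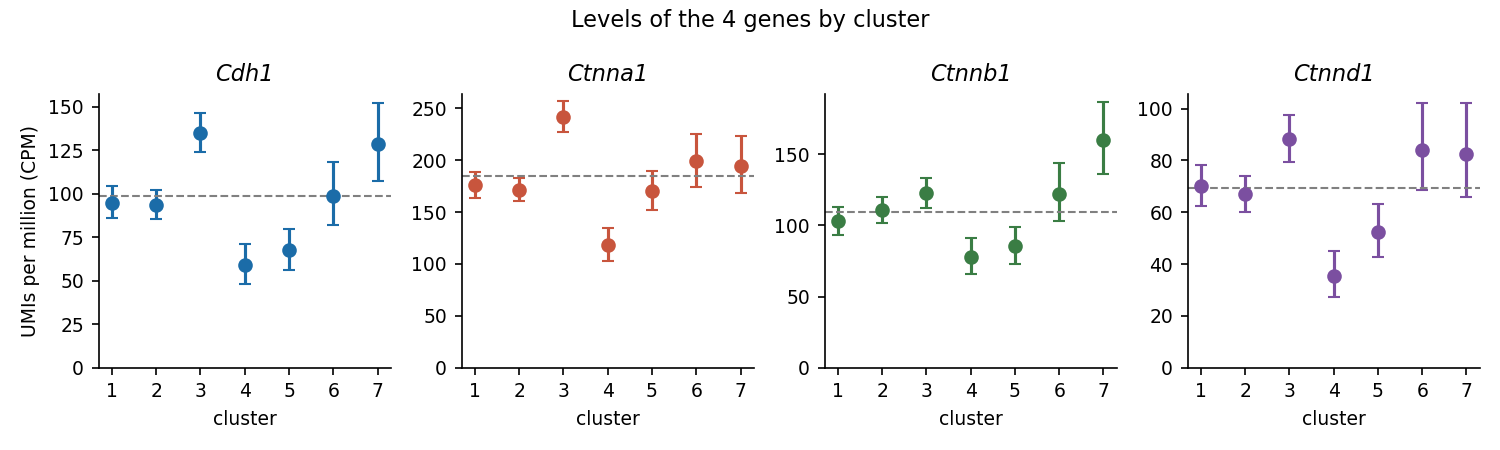
Level of each gene (vertical axis, CPM) in the 7 clusters (horizontal axis), 1 panel per gene, with 95% Poisson intervals; the dashed line is the level over all kept barcodes. Cluster 4 is the lowest in all 4 panels, and cluster 3 is the highest for Cdh1, Ctnna1 and Ctnnd1, with cluster 7 highest for Ctnnb1.

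Cell cycle phases were called from gene scores, which gave 1452 barcodes in G1, 265 in S and 175 in G2/M. Cdh1 was at 98.7 CPM (93.9 to 104) in G1, 79.3 CPM (68.1 to 91.9) in S and 118 CPM (105 to 133) in G2/M. Its ratio of G2/M to S was 1.49 (1.23 to 1.81), and S against G1 gave 0.804 (0.684 to 0.939). Ctnnb1 was at 108, 99 and 124 CPM, with a G2/M to S ratio of 1.26 (1.05 to 1.51). Ctnnd1 was at 67.6, 69.5 and 82.8 CPM (1.19, 0.959 to 1.48), and Ctnna1 was at 186, 176 and 189 CPM (1.08, 0.937 to 1.24). Cdh1 and Ctnnb1 were the 2 members at least 1.2 times as high in G2/M as in S, as were 23% of all genes, with a median of 1.05. Against G1, G2/M gave 1.199 (1.05 to 1.36) for Cdh1, 1.02 (0.919 to 1.13) for Ctnna1, 1.15 (1.01 to 1.30) for Ctnnb1 and 1.23 (1.04 to 1.43) for Ctnnd1. Depth moved with phase, from a median of 7037 UMIs in S to 11270 in G2/M, and its part in these ratios was not tested.

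Taken as a whole, cycling barcodes had ratios near 1. S and G2/M together over G1 gave 1.004 (0.902 to 1.12) for Cdh1, 0.983 (0.909 to 1.06) for Ctnna1, 1.03 (0.934 to 1.14) for Ctnnb1 and 1.13 (0.997 to 1.28) for Ctnnd1. Without cluster 7 these were 0.929, 0.987, 0.996 and 1.07. When cycling barcodes were instead those with a UMI of Mki67 or Top2a, the ratios were 1.27 (1.16 to 1.40) for Cdh1, 1.10 for Ctnna1, 1.17 for Ctnnb1 and 1.27 for Ctnnd1.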

How the data were processed

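The deposited matrix holds whole-number counts of UMIs per gene and barcode, deposited without normalization. It was written by Cell Ranger 6.1.2, per the file headers and the submitters' processing notes, which also give the genome build as GRCm38/mm10. The 12 tag rows were kept out of all totals. Of 32285 gene identifiers, 32158 were found in GENCODE M21.

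Barcodes with at least 500 genes and at most 20% mitochondrial UMIs were kept. Scrublet called 12 doublets (0.634%, expected 1.59%), which were kept, since the set of barcodes was fixed by the 2 filters. Intervals at 95% are exact: Poisson for CPM, Clopper-Pearson for shares and conditional binomial for CPM ratios. Barcodes were thinned to 3000 UMIs with a fixed seed. The mean over all draws, computed from the hypergeometric distribution, was added after the data had been seen, as were totals without ribosomal genes, regression and centring.

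Correlations are Pearson's r of residuals (variance mu + mu squared / 100) over genes with at least 500 UMIs. Clusters came from 2000 variable genes, 30 components, 15 neighbours and Leiden resolution 0.6 (scanpy 1.11.5, leidenalg 0.10.2), and are rebuilt ones, since no file gave cell types. Cell cycle calls used 43 S and 54 G2/M genes. The likeness step was tested on simulated data.

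Named genes are the members, the listed genes, the 12 highest and 12 lowest by r with Cdh1 in CMO301 barcodes, the 5 highest for each catenin and the 5 leading genes of a cluster. Malat1, Neat1 and companions given by cluster were named after their values were seen. One gene that the rule selects is not reported here. The members and lists were chosen with earlier results of these data known.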

Additional observations from a re-analysis of the deposited data

Results flagged for a closer look

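The multiplexing tags are not described in the labels and enter no comparison between groups. CMO301 was the highest tag in 55.7% of the deposited barcodes and CMO302 in the remaining 44.3%. Together the 12 tags took 21.4% of the UMIs in the matrix. All 4 members had overlapping intervals in the barcodes of the 2 tags.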

How the results depend on the processing

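No paired analysis was possible because only 1 sample was given. Of 183 alternative values for 25 results, 25 moved beyond the counting interval or by more than 1.5 times. The 13 ratios near 1 had 93 alternative values, of which 14 lay on the other side of 1 from the reported one: 10 of co-detection, such as 0.987 for Cdh1 with Ctnna1 under another seed and 0.938 for Ctnnb1 with Ctnnd1 in CMO302 barcodes, and 4 of cycling, such as 0.929 for Cdh1 without cluster 7. The interval of 1 of these left out 1, that of Ctnna1 in cycling barcodes called by Mki67 or Top2a (1.03 to 1.18). Taken as a mean over barcodes, levels were 93.5 CPM for Cdh1, 176 CPM for Ctnna1, 104 CPM for Ctnnb1 and 64.5 CPM for Ctnnd1. At 2000 UMIs the ratio of co-detection for Ctnna1 and Ctnnb1 was 1.16. The ratio of Ctnna1 CPM with and without Cdh1 was 1.02 with another seed. Genes at least 1.2 times as high with a Cdh1 UMI numbered 691, but 232 among genes with at least 1000 UMIs, 1696 with at least 200 and 298 over all draws. Genes at or under the inverse numbered 231, but 111 at 5000 UMIs, 466 in CMO301 and 494 in CMO302 barcodes, 74 and 696 with the 2 other gene minimums, and 20 over all draws. The highest over the lowest cluster at resolution 0.3 was 1.40, 1.33, 1.37 and 1.44 for Cdh1, Ctnna1, Ctnnb1 and Ctnnd1. The clusters highest and lowest in CPM differed by 1.69 times for Ctnna1 and 1.45 times for Ctnnb1 in the share of barcodes with a UMI at 3000 UMIs, where cluster 6 had the highest share of both, and by 1.755 times for Ctnna1 in CMO302 barcodes. Cycling over other barcodes, called by Mki67 or Top2a, was 1.27 for Cdh1, 1.10 for Ctnna1 and 1.17 for Ctnnb1. The causes were not tested. Depth limits co-detection: 0.545% of barcodes thinned to 3000 UMIs held all 4 members, against 19.3% before thinning.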
